A study of Homo sapiens with 5 samples.

Results

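Methylated regions are described here in 3 stretches of the K562 genome: chromosome 22 from 17 to 24 Mb (22q11, the side of BCR), chromosome 9 from 133 to 135 Mb (9q34, around ABL1) and chromosome 13 from 80 to 94 Mb (13q31). They were defined by position, as segments known to be gained in K562, a chronic myeloid leukaemia cell line. The choice was made with earlier results of these data known. A peak belonged to a segment when its start lay inside it. Together they held 573 of the 23350 peaks deposited for the 5 libraries. Of these, 381 were in 22q11, 30 in 9q34 and 162 in 13q31.

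The libraries come from methylated DNA immunoprecipitation with sequencing (MeDIP-seq), in which an antibody to 5-methylcytosine pulls down methylated fragments and a peak marks a place where fragments piled up. The 3 lines with mutated DNMT3A (MT1, MT2 and MT4), made by CRISPR/Cas9 editing per the series title, were set against 2 wild-type cultures, WT bulk and WT transfected. All 5 are K562 cells grown in the same medium, and the labels give neither the mutation of each line nor whether the mutated lines are separate clones. WT bulk and WT transfected are different kinds of control, so that culture history and genotype cannot be told apart. The list lengths were 2842 peaks in MT1, 1426 in MT2 and 8399 in MT4, against 6213 in WT bulk and 4470 in WT transfected. The read depth behind a peak is unknown, and a missing peak is a place that did not reach the lowest score kept in that list (90 or just above).

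K562 carries the Philadelphia translocation, which joins BCR on chromosome 22 to ABL1 on chromosome 9 and yields a constantly active tyrosine kinase. In this line the fused segments are present in extra copies, and a further gain lies on 13q31, where MIR17HG, the host gene of the miR-17-92 cluster of oncogenic microRNAs, is found. DNMT3A is one of the enzymes that set new methyl groups on cytosine in CpG. Copy number was not measured in the files used here, and higher methylation and more copies cannot be told apart from peak lists. No hg19 sequence or annotation was used, so genes are given only as background for windows of 1 Mb.

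Peaks were crowded in 22q11 in all 5 libraries. The segment held 46 peaks in MT1, 18 in MT2 and 148 in MT4, against 95 in WT bulk and 74 in WT transfected. That was 6.57, 2.57 and 21.1 peaks per Mb in MT1, MT2 and MT4, and 13.6 and 10.6 per Mb in WT bulk and WT transfected. On the rest of chromosome 22 the density was 0.499, 0.249 and 1.50 peaks per Mb in MT1, MT2 and MT4, and 1.46 and 0.713 in WT bulk and WT transfected. The segment was thus 9.29 (WT bulk) to 14.8 (WT transfected) times as dense as the rest of its chromosome, with the mutated lines at 13.2, 10.3 and 14.1 times. The rest of chromosome 22 was itself at 0.469 to 0.692 times the density of chromosomes 1 to 22 and X together. Set against those chromosomes, 22q11 was 5.31 (MT2) to 7.41 (MT4) times as dense.

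Most peaks of chromosome 22 lay in 22q11 in every library. Its share was 76.7% (46 of 60; 95% Wilson interval 64.6 to 85.6%) in MT1, 72.0% (18 of 25; 52.4 to 85.7%) in MT2 and 77.9% (148 of 190; 71.5 to 83.2%) in MT4. In WT bulk it was 69.9% (95 of 136; 61.7 to 76.9%) and in WT transfected 78.7% (74 of 94; 69.4 to 85.8%). The segment takes up 20.0% of the length between the first and last peak of the chromosome. The excess over that length share averaged 55.1 ± 3.89 percentage points (SD, n = 5) and was positive in 5 of 5 libraries (exact sign-flip permutation test, two-sided, p = 0.063, the smallest that 5 libraries allow; adjusted over 18 tests 0.225). The intervals cover counting error only, and neighbouring peaks are not independent.

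The genotypes overlapped in 22q11 in the lists as deposited. Of the chromosome 22 peaks, mutated lines had 75.5 ± 3.11% there (SD, n = 3), against 74.3 ± 6.27% for wild-type cultures (SD, n = 2). The difference was 1.23 percentage points, and a two-sided exact permutation test gave p = 0.8, where 0.2 is the smallest the design allows. With every list cut to its 1426 highest scores the difference was -14.6 points, with no overlap between the genotypes, and it was -3.20 without WT bulk. As a share of the whole list the segment had 1.62% in MT1, 1.26% in MT2 and 1.76% in MT4, against 1.53% in WT bulk and 1.66% in WT transfected. The mutated values lie on both sides of the wild-type values. When peaks scoring below the median over all lists were dropped, the difference in this share was 0.601 percentage points, and all mutated lines lay above both wild-type cultures (exact permutation p = 0.2). The sign of both differences thus depended on the processing.

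**Figure D1:**
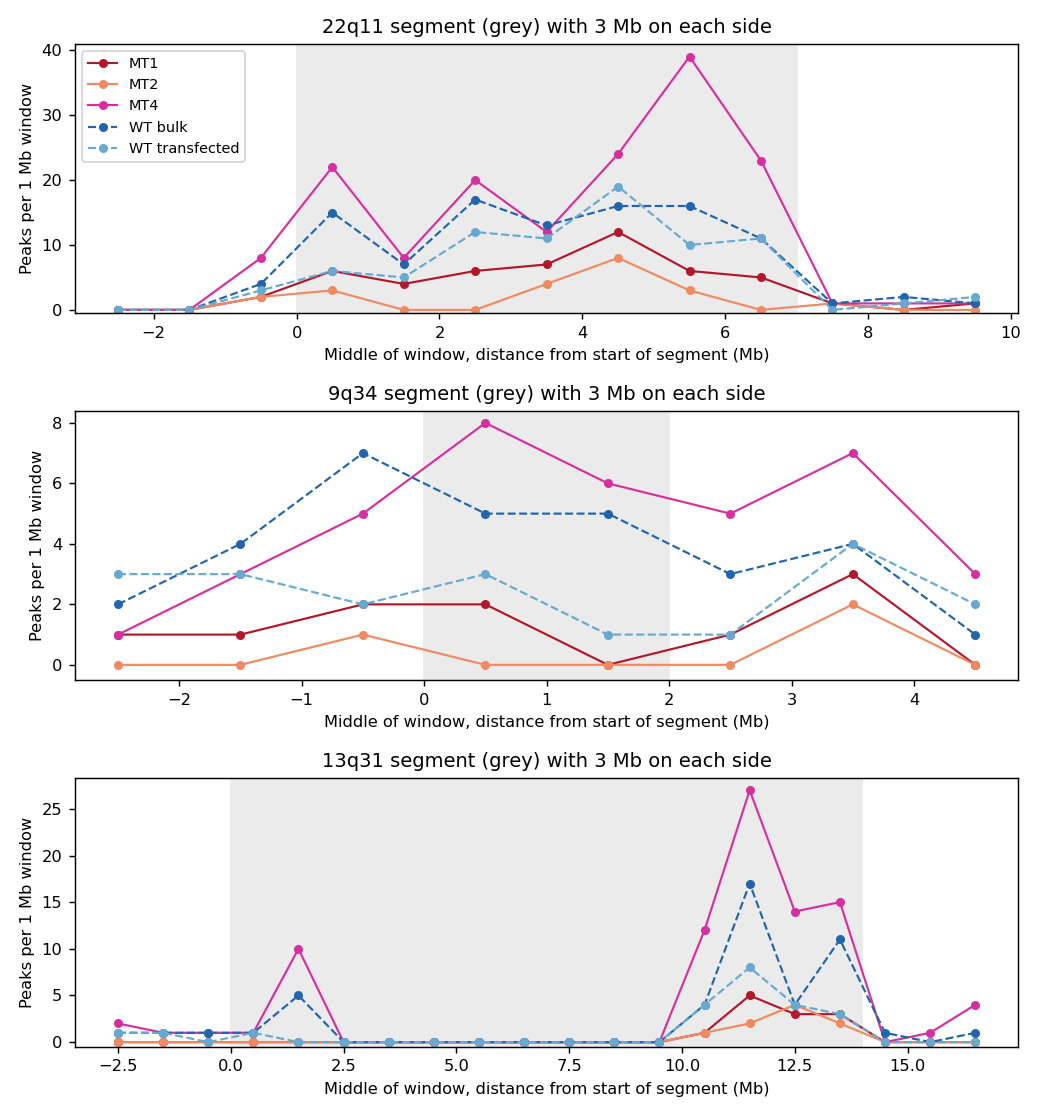
Number of peaks per window of 1 Mb (y axis) by the distance of the middle of the window from the start of each segment (x axis, Mb), one line per library, solid for mutated and dashed for wild-type. On 22q11 every line is at 0 or 1 peak in the first window beyond the upper end, a drop in every library but MT2. MT2 is at 0 in the window before and at 1 there. On 13q31 every line is at 0 for 8 windows in the middle of the segment.

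The crowding of chromosome 22 ended sharply on the side of BCR. In the window from 22 to 23 Mb there were 6 peaks in MT1, 3 in MT2 and 39 in MT4, against 16 in WT bulk and 10 in WT transfected. In the window from 23 to 24 Mb, which holds BCR, there were 5, 0 and 23 peaks in MT1, MT2 and MT4, against 11 in each wild-type culture. In the window from 24 to 25 Mb there was 1 peak each in MT1, MT2, MT4 and WT bulk and none in WT transfected. In MT1, MT4 and both wild-type cultures the step lies inside the 23 to 24 Mb window. MT2 had no peak in that window, and its last peak of the segment ended at 22637458. Between 23.25 and 23.5 Mb there were 2, 0 and 8 peaks in MT1, MT2 and MT4, against 6 in each wild-type culture, and between 23.5 and 23.75 Mb there were none in any library.

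In detail, no library had a peak from position 23390841 to 23800694, a stretch of 410 kb. Then came a single weak region from 23800695 to 23802021, with a score of 97.6 in MT1 and 103 in MT4, followed by 1088 kb without a peak. The last peak of WT bulk ended at 23390840 and that of WT transfected at 23390447, so the step came at nearly the same place in both. In the order of RefSeq genes (GRCh38), BCR follows GNAZ, a G protein alpha subunit, and RAB36, a small GTPase, and is followed by IGLL1. The lower end was less sharp. The region just inside it, from 17000205 to 17002797, was held by all 5 libraries. It scored 504 in MT1, 296 in MT2 and 751 in MT4, against 549 in WT bulk and 535 in WT transfected. The region just outside, from 16974014 to 16974805, was held by MT4 alone with a score of 170. The window from 16 to 17 Mb still had 2, 2 and 8 peaks in MT1, MT2 and MT4, against 4 and 3 in WT bulk and WT transfected.

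Within 22q11 the window from 21 to 22 Mb, which holds CRKL, an adaptor protein that BCR-ABL1 phosphorylates, had the highest mean share of the lists. It held 12 peaks in MT1, 8 in MT2 and 24 in MT4, against 16 in WT bulk and 19 in WT transfected, and stood in position 4 of 2183 when windows holding any peak were ordered by that share. The sparsest was 18 to 19 Mb, with 4, 0 and 8 peaks in MT1, MT2 and MT4, against 7 and 5 in WT bulk and WT transfected. Of the 7 windows of the segment, 6 were among the top 50 of the genome by mean share. None of the 2 windows of 9q34 was, and 1 of the 14 of 13q31 was, at 91 to 92 Mb (position 18).

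The share of 22q11 peaks in its upper stretch was highest in MT4. Between 22.25 and 23.5 Mb, a stretch that overlaps the immunoglobulin lambda locus, MT4 had 54 of its 147 peaks between 17 and 23.5 Mb, or 36.7% (95% Wilson interval 29.4 to 44.8%). The share was 17.8% in MT1 (8 peaks; 9.29 to 31.3%), 16.7% in MT2 (3 peaks; 5.84 to 39.2%), 26.3% in WT bulk (25 peaks; 18.5 to 36.0%) and 25.7% in WT transfected (19 peaks; 17.1 to 36.7%). The stretch was chosen after the values were seen, the interval of MT4 overlaps that of every other library, and the difference was not tested.

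Compared with stretches of 7 Mb starting at every whole Mb of chromosomes 1 to 22 and X, 22q11 was near the top. Of 2896 such stretches clear of the segment, 3 held at least as many peaks in MT1, 13 in MT2 and 0 in MT4, against 1 in WT bulk and 1 in WT transfected. Those of MT1 and of both wild-type cultures were on chromosome 6, where 26 to 33 Mb, with the large histone gene cluster, held the most. Those in MT2 were on chromosomes 2, 5 and 6. At least as many peaks as in 13q31 were held by 10.1% (MT4) to 44.8% (MT1) of stretches of 14 Mb. For 9q34 it was 10.2% (MT4) to 41.1% (MT1) of stretches of 2 Mb, leaving out MT2, which had no peak there. The stretches overlap one another, so the counts describe the lists and are not a test.

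**Figure D2:**
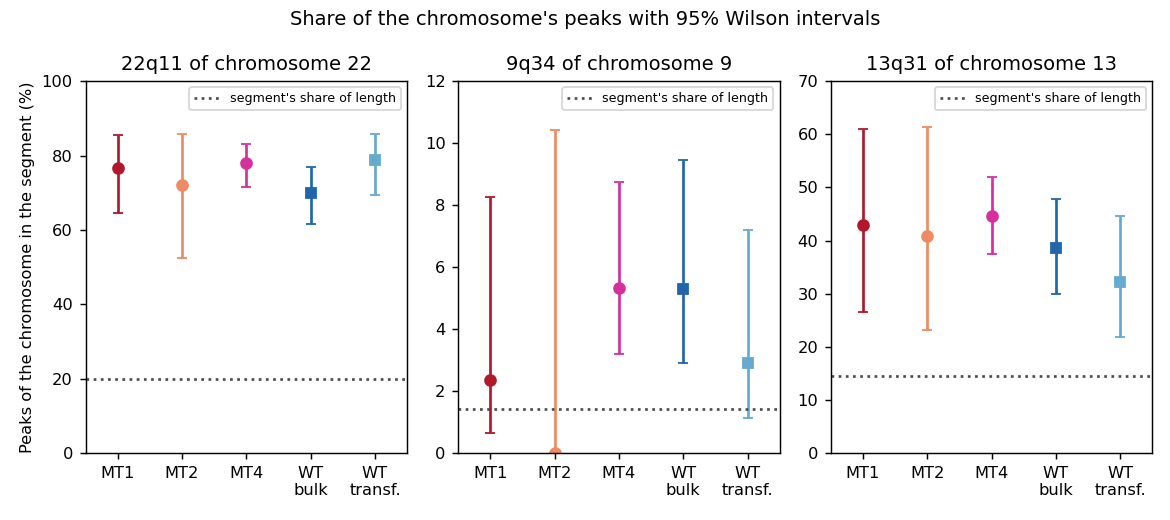
Percentage of the peaks of chromosomes 22, 9 and 13 that start in the segment (y axis), by library (x axis), with 95% Wilson intervals; circles are mutated lines, squares wild-type cultures, and the dotted line is the segment's share of the length between the first and last peak of the chromosome. All 5 libraries lie far above the line for 22q11 and above it for 13q31, and MT2 lies at 0 for 9q34.

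The 9q34 segment did not stand out in the same way. It held 2 peaks in MT1, 0 in MT2 and 14 in MT4, against 10 in WT bulk and 4 in WT transfected. These were 2.38% (95% Wilson interval 0.655 to 8.27%), 0% (0 to 10.4%) and 5.32% (3.20 to 8.74%) of the peaks of chromosome 9 in MT1, MT2 and MT4. In WT bulk they were 5.29% (2.90 to 9.46%) and in WT transfected 2.90% (1.13 to 7.22%), where the segment takes up 1.42% of the length. The excess averaged 1.76 ± 2.23 percentage points (SD, n = 5) and was positive in 4 of 5 libraries (exact sign-flip test, two-sided, p = 0.188; smallest possible 0.063). Without the peaks of the window from 133 to 134 Mb it was -0.256 percentage points. The length share was kept at that of the whole segment, which lowers this value, so its sign cannot be read. By base pairs under a peak the excess was 4.79 points (exact p = 0.125). With the segment extended by 1 Mb at both ends it was 3.92 points and positive in every library (exact p = 0.063). With length counted in 1 Mb windows that hold a peak it was only 0.581 points (exact p = 0.5).

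Set against chromosomes 1 to 22 and X, 9q34 was 1.04 times as dense in MT1 and 2.45 times in MT4, against 2.37 times in WT bulk and 1.32 times in WT transfected. MT2, with none of its 1426 peaks there, could have held up to 0.269% of its list by the Wilson interval, more than the share of any other library. Its 0 therefore does not set it apart at this list length. The mean share of chromosome 9 was 2.57 ± 2.67% in mutated lines (SD, n = 3) and 4.09 ± 1.69% in wild-type cultures (SD, n = 2), with an exact permutation p of 0.6. Measured by base pairs under a peak instead of number of peaks, the difference was -5.62 percentage points, and all mutated lines lay below both wild-type cultures (exact permutation p = 0.2, the smallest possible). This includes the 0 of MT2 and rests on 2 peaks in MT1 and 4 in WT transfected. The gap between the genotypes was narrow, with MT4 close below WT transfected.

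Most peaks of 9q34 gathered in 2 places, with others outside them. The window from 133 to 134 Mb, in which ABL1 lies, held 2, 0 and 8 peaks in MT1, MT2 and MT4, against 5 and 3 in WT bulk and WT transfected. Most of them started between 133567030 and 133709716. The window from 134 to 135 Mb, which holds NUP214, a nuclear pore protein, had 0, 0 and 6 peaks in MT1, MT2 and MT4, against 5 and 1 in WT bulk and WT transfected. In RefSeq order ABL1 is followed by QRFP, FIBCD1, LAMC3, AIF1L and NUP214. Between the 2 groups lay 306 kb without a peak in any library, from 133713281 to 134019331. A longer stretch without a peak, of 429 kb, ran from 134353585 to 134782512.

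Merging overlapping peaks gave 19 regions in 9q34, and no region was common to all 5 libraries. The one with the most support, from 133708428 to 133713280, was held by 4. Its score was 139 in MT1 and 397 in MT4, against 242 in WT bulk and 201 in WT transfected. In terms of rank within each list, this was percentile 71.3 in MT1, 99.2 in MT4, 93.2 in WT bulk and 89.6 in WT transfected. The widest region, 5864 bp from 134068965 to 134074828, scored 340 in MT4 (percentile 98.4), against 107 in WT bulk (29.8) and 102 in WT transfected (24.7). In MT4 this place was among the strongest of the list, while it was in the lower part of both wild-type lists. Ranks in the ABL1 window went both ways. The region from 133638712 to 133644405 scored 201 in MT4 (percentile 86.7) against 96.3 in WT bulk, and that from 133659775 to 133663630 scored 261 in MT4 (95.1) against 118 in WT transfected (46.2). In contrast, the region from 133688106 to 133692570 stood at percentile 47.3 in MT4 against 75.5 in WT bulk. That from 133308185 to 133309581 stood at 41.8 in MT1 and 10.2 in MT4, against 40.3 in WT transfected. The remaining regions included 13 held by a single library, 7 by MT4 and 6 by WT bulk.

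At the edges of 9q34 there was no step. The last region below it, from 132987518 to 132989250, was held by WT bulk alone with a score of 97.3, and the first inside, from 133308185 to 133309581, had scores of 111 in MT1 and 94.5 in MT4, against 113 in WT transfected. The last region inside ended at 134947734, and the next outside, from 135048700 to 135050099, was held by MT1, MT4 and WT bulk with scores of 90.1 to 104. The window from 132 to 133 Mb had 2, 1 and 5 peaks in MT1, MT2 and MT4, against 7 and 2 in WT bulk and WT transfected, much like the windows inside.

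**Figure D3:**
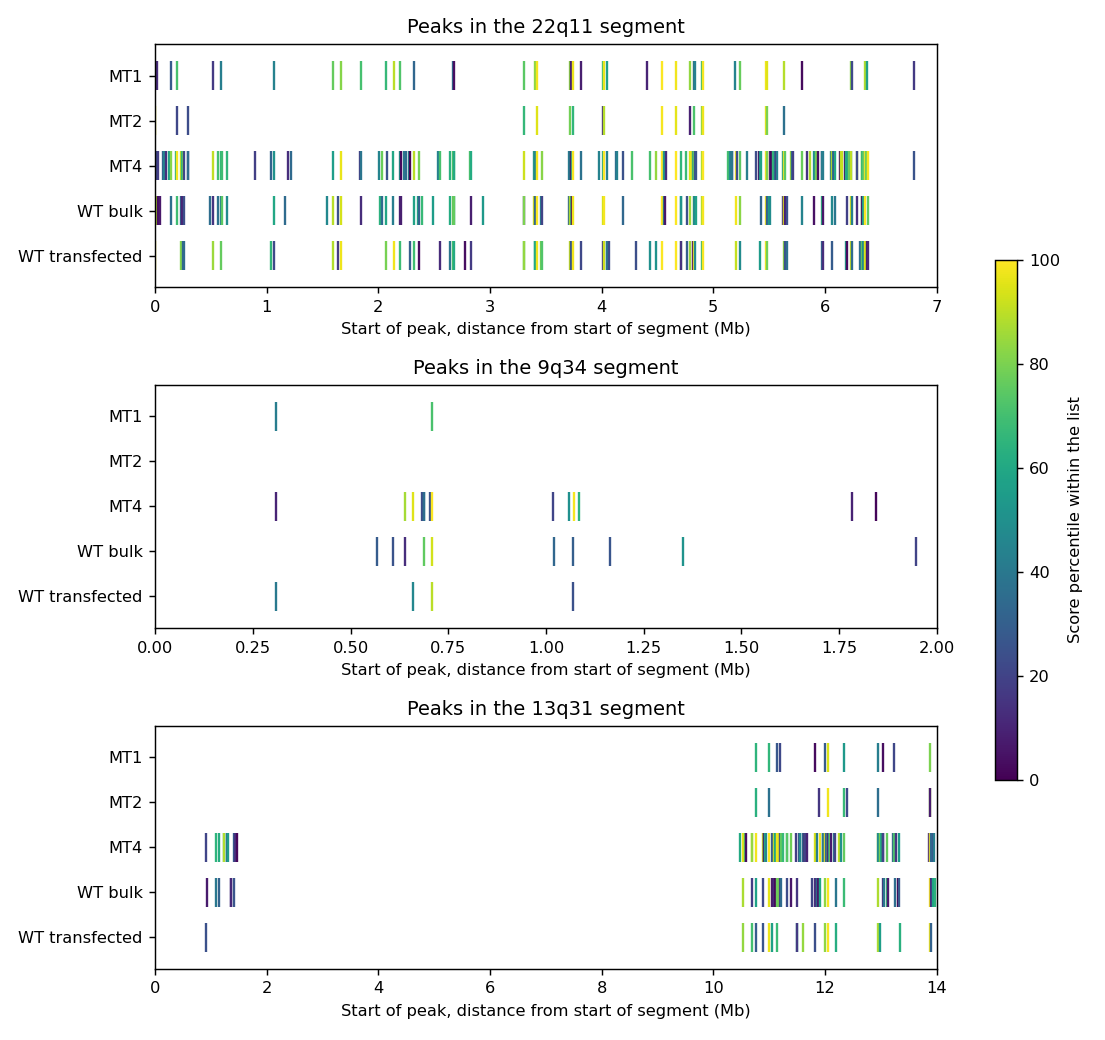
Start of each peak in the 3 segments (x axis, distance from the start of the segment in Mb), one row per library, coloured by the percentile of the peak's score within its list. Most 9q34 peaks fall into groups near 0.6 to 0.7 Mb and 1.0 to 1.1 Mb, with others outside them. The 13q31 peaks fall into a group near 1 Mb, seen in MT4 and both wild-type cultures only, and a larger one from 10.5 to 14 Mb.

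The 13q31 segment was dense for its chromosome in every library, and denser than the genome in 3 of 5. It held 12 peaks in MT1, 9 in MT2 and 79 in MT4, against 42 in WT bulk and 20 in WT transfected. These were 42.9% (95% Wilson interval 26.5 to 60.9%) of the chromosome 13 peaks of MT1, 40.9% (23.3 to 61.3%) of MT2 and 44.6% (37.5 to 52.0%) of MT4. In the wild-type cultures they were 38.5% (29.9 to 47.9%) in bulk and 32.3% (21.95 to 44.6%) in transfected cells. The segment takes up 14.6% of the length, and the excess averaged 25.2 ± 4.81 percentage points (SD, n = 5), positive in 5 of 5 libraries (exact sign-flip test, two-sided, p = 0.063, the smallest possible; adjusted over 18 tests 0.225). Without the peaks of its densest window it averaged 15.3 points and was still positive in every library. The length share was kept at that of the whole segment. The rest of chromosome 13 was poor in peaks, at 0.203 (MT1) to 0.420 (MT4) times the density of chromosomes 1 to 22 and X. Against those chromosomes the whole segment stood at 0.888 times in MT1, 1.33 in MT2 and 1.98 in MT4, and at 1.42 in WT bulk and 0.941 in WT transfected.

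All 3 mutated lines had a larger share of chromosome 13 peaks in 13q31 than both wild-type cultures. The mean was 42.8 ± 1.86% for mutated lines (SD, n = 3), against 35.4 ± 4.44% for wild-type cultures (SD, n = 2). That is 7.40 percentage points apart, and the two-sided exact permutation p was 0.2, the smallest it can be (adjusted over 18 tests 0.4). Each library's interval includes the means of both groups except those of MT4, whose lower bound of 37.5% lies above the wild-type mean. As a share of the whole list the groups overlapped, with 0.422% in MT1, 0.631% in MT2 and 0.941% in MT4, against 0.676% in WT bulk and 0.447% in WT transfected (exact permutation p = 1). The share of chromosome 13 differed in the same direction in every setting tried, but the genotypes overlapped in 3 of them. The difference was 1.59 percentage points when every list was cut to its 1426 highest scores (exact permutation p = 1), 13.9 with peaks under the median score dropped (exact p = 0.6) and 3.87 by base pairs under a peak (exact p = 0.4). It was 4.27 without WT transfected. The share of the list differed by -0.035 without MT4 and by -0.0113 without WT transfected.

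Peaks did not fill 13q31. From 82 to 90 Mb, 8 of its 14 windows of 1 Mb had no peak in any library. This stretch, which holds the neuronal membrane protein genes SLITRK1, SLITRK6 and SLITRK5, was part of a gap of 9.01 Mb from 81462750 to 90470099. That gap was in position 10 among the gaps between merged regions on chromosomes 1 to 22 and X, and second on chromosome 13 after one of 10.9 Mb from 53776328 to 64651643. The peaks of the segment thus lay in 2 separate clusters.

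The larger cluster ran from 90470100 to 93978889, or 3.51 Mb. It held 12 peaks in MT1, 9 in MT2 and 68 in MT4, against 36 in WT bulk and 19 in WT transfected. Its density was 3.54, 5.30 and 6.79 times that of chromosomes 1 to 22 and X in MT1, MT2 and MT4, against 4.86 and 3.57 times in WT bulk and WT transfected. The limits of the cluster were read from the peaks, so its density is a description. The smaller cluster, from 80911222 to 81462749, starts in the window that holds SPRY2, an inhibitor of receptor tyrosine kinase signalling. It held 0, 0 and 11 peaks in MT1, MT2 and MT4, against 6 in WT bulk and 1 in WT transfected. None of its 16 regions was in MT1 or MT2, the shortest lists.

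At its upper end the 13q31 limit of 94 Mb falls near the end of the cluster. The last region inside, from 93977519 to 93978889, scored 145 in WT bulk, and the first outside, from 94007432 to 94008414, scored 126 in WT bulk, with no other library in either. At the lower end, the last region before 80 Mb, from 79181113 to 79182336, was held by WT bulk alone with a score of 99.6. The first inside, at 80911222, was held by MT4 (100) and WT transfected (102).

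The densest window of 13q31 was 91 to 92 Mb, with 5 peaks in MT1, 2 in MT2 and 27 in MT4, against 17 in WT bulk and 8 in WT transfected. The next, 92 to 93 Mb, holds MIR17HG and the start of GPC5, a cell-surface proteoglycan gene. It had 3, 4 and 14 peaks in MT1, MT2 and MT4, against 4 in each wild-type culture. As a share of the list this was 0.106%, 0.281% and 0.167% in MT1, MT2 and MT4, against 0.0644% and 0.0895% in WT bulk and WT transfected. Of the 23 windows 15 held a peak in any library, and this was the one in which all mutated lines lay above both wild-type cultures. Among all 2183 windows that held a peak 6.05% did so, and the MT1 and MT2 values rest on 3 and 4 peaks. The windows in which all mutated lines lay below both were 19 to 20 Mb on chromosome 22 and 80 to 81 Mb on chromosome 13. They were 2 of the 15 that held a peak, against 9.8% of all windows that did. At 80 to 81 Mb MT4 and each wild-type culture held 1 peak, and MT1 and MT2 held 0. MT4 had the smaller share there only because its list is longer.

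Merged regions show which places the libraries had in common. The 3 segments held 295 of the 11260 regions of the series, 175 in 22q11, 19 in 9q34 and 101 in 13q31. Regions held by all 5 libraries numbered 15 in 22q11 (8.57%), 0 in 9q34 and 5 in 13q31 (4.95%), where 7.42% of all regions were so held. On the rest of the same chromosomes it was 2 of 66 on chromosome 22, 18 of 334 on chromosome 9 (5.39%) and 2 of 132 on chromosome 13. Without MT2, the shortest list, regions held by every library numbered 31 in 22q11, 1 in 9q34 and 8 in 13q31. Regions held by 1 library were 79 in 22q11 (45.1%), 13 in 9q34 (68.4%) and 68 in 13q31 (67.3%), against 49.9% of all regions.

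Of the single-library regions in the 3 segments, 116 of 160 belonged to MT4 (72.5%), against 60.3% over the series. The share was 75.9% in 22q11 and 72.1% in 13q31, where the rest of the same chromosomes had 44.1% and 58.1%. In 9q34 it was 53.8%. MT4 had the longest list, and the part of list length in these shares was not tested.

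**Figure D4:**
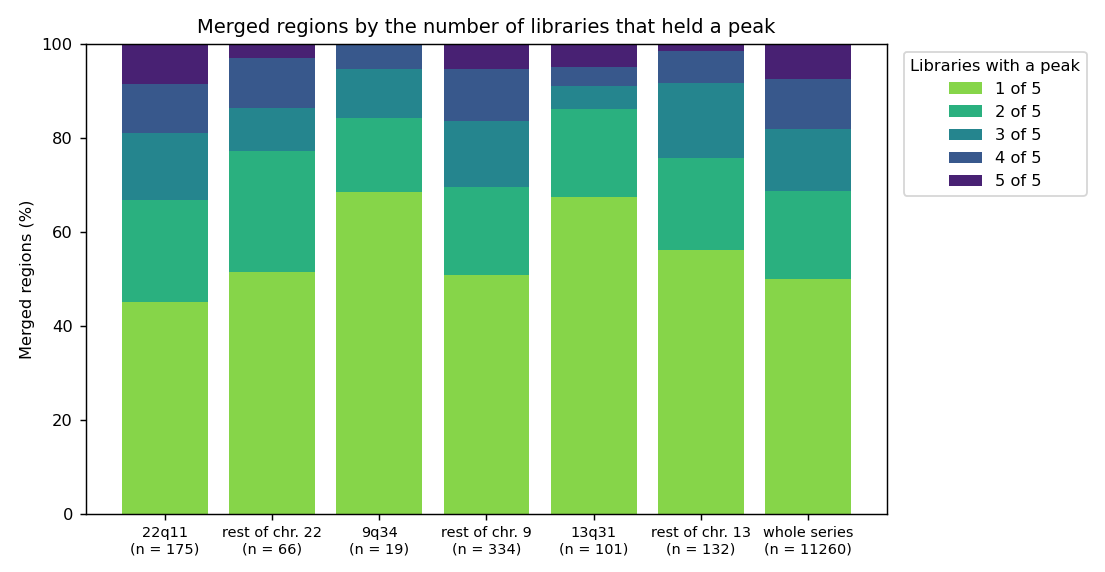
Percentage of merged regions (y axis) that held a peak in 1 to 5 of the 5 libraries, for each segment, the rest of its chromosome and the whole series (x axis, with the number of regions). The share held by 1 library is 45.1% in 22q11 and close to 68% in 9q34 and 13q31, against 49.9% in the whole series.

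The regions that all 5 libraries had in common included places at the top of every list. On 22q11 the strongest lay at 21537491 to 21538836, where the score was 497 for MT1, 416 for MT2 and 583 for MT4, against 648 in WT bulk and 612 in WT transfected. Its mean percentile within the lists was 99.4. It was followed by the region at 17000205 described above (99.3). The next 3 completed the top 5. They lay at 21909355 to 21912973 (mean percentile 98.7), 22468486 to 22473403 (98.6) and 21663098 to 21663968 (98.4). Of the 15 common regions of 22q11, 8 lay in the window from 21 to 22 Mb.

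On 13q31 the strongest common region lay at 92050481 to 92052649, in the window of MIR17HG and GPC5. Its score was 215 in MT1, 287 in MT2 and 601 in MT4, against 364 in WT bulk and 378 in WT transfected, a mean percentile of 98.0. The second, at 93878921 to 93881187, scored 156, 149 and 572 in MT1, MT2 and MT4, against 410 and 306 in WT bulk and WT transfected. Here MT4 was at percentile 99.7 and WT bulk at 99.3, with MT1 at 80.2 and MT2 at 84.8. The third, at 91000043 to 91002726, scored 133, 104 and 428 in MT1, MT2 and MT4, against 269 and 273 in WT bulk and WT transfected. The remaining pair lay at 92947936 to 92949706 and at 90755687 to 90757846, with mean percentiles of 70.3 and 62.5. In the last of these, MT4 stood at percentile 97.7, against 57.1 in WT bulk and 28.9 in WT transfected.

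At places that MT4 had in common with WT bulk, MT4 ranked higher on 13q31 by more than on the rest of chromosome 13. Over the 25 regions of 13q31 held by both, the median percentile was 94.0 in MT4 and 39.2 in WT bulk, and MT4 ranked higher at 24. The median of the differences was 27.0, where it was 7.5 over 45 regions on the rest of chromosome 13 and 4.2 over 4259 regions of the series. On 9q34 it was 37.4 over 4 regions, against 2.0 over 119 on the rest of chromosome 9. On 22q11 it was 8.7 over 73 regions, against 5.0 over 22 on the rest of chromosome 22. Against WT transfected the differences were nearer to those elsewhere on 13q31, at 13.6 over 16 regions, with 11.9 on the rest of the chromosome. For 22q11 the order was reversed with this control, at 8.71 over 57 regions and 16.03 over 12 on the rest of chromosome 22. For 9q34 the order was kept, at 29.3 over 4 regions and 8.27 over 99 on the rest of chromosome 9. These are ranks within lists of unequal length, for regions chosen by being in both, and were not tested.

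No region of the 3 segments was held by all 3 mutated lines and neither wild-type culture, where 0.071% of all regions (8) were. Those held by both wild-type cultures and no mutated line numbered 6 in 22q11, 0 in 9q34 and 2 in 13q31. That is 2.71% of the 295 regions, near the 2.74% over all regions. Leaving out a library widens the class. Without MT4, the longest list, it numbered 22, 1 and 6. Regions held by both wild-type cultures and MT4 alone, 16, 1 and 4, joined it, against 897 of all 11260. Without WT transfected it asked for WT bulk only and numbered 18, 6 and 16. Regions of WT bulk alone, 12, 6 and 14, joined it, against 1356 of all 11260. Without WT bulk it numbered 12, 0 and 4. Regions of WT transfected alone, 6, 0 and 2, joined it, against 584 of all 11260. Of the 6 in 22q11 with every library in use, the strongest lay at 20457932 to 20458364. It scored 119 in WT bulk and 163 in WT transfected. Another at 20301763 to 20305283 scored 94.3 and 151, and those at 21712578 to 21713304, 22658578 to 22661893 and 21759830 to 21760559 had mean percentiles of 32.7, 30.8 and 27.0. In 13q31 they were at 92194473 to 92195644 (115 in WT bulk and 137 in WT transfected) and at 91491785 to 91496081 (97.8 and 133). None of this kind remained on 22q11 or 13q31 when peaks scoring below the median over all lists were dropped.

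Peaks of 22q11 ranked higher and were wider than those on the rest of chromosome 22. The median score percentile inside was 70.6 in MT1, 79.2 in MT2 and 58.8 in MT4, against 48.2 in WT bulk and 58.0 in WT transfected. On the rest of the chromosome it was 46.0, 49.9 and 50.9 in MT1, MT2 and MT4, and 34.8 and 44.4 in WT bulk and WT transfected. The difference averaged 17.8 ± 8.87 percentile points (SD, n = 5), with the segment higher in 5 of 5 libraries (exact sign-flip test, two-sided, p = 0.063, the smallest possible). With peaks under the median score dropped it averaged 11.5 points and was no longer positive in every library (exact p = 0.125). The tenth of each list with the highest scores took in 21.7%, 33.3% and 16.9% of the 22q11 peaks of MT1, MT2 and MT4, and 20.0% and 20.3% of those of WT bulk and WT transfected. On the rest of the chromosome it took in 14.3%, 0% and 4.76% of those of MT1, MT2 and MT4, and 2.44% and 0% of those of WT bulk and WT transfected.

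The median width in 22q11 was 1920 bp in MT1, 2875.5 bp in MT2 and 1712.5 bp in MT4, against 2037 bp in WT bulk and 1919.5 bp in WT transfected. It exceeded that of the rest of chromosome 22 by 415 to 1156.5 bp, on average 694 ± 283 bp (SD, n = 5; exact sign-flip p = 0.063). With the segment extended by 1 Mb at both ends the average was 316 bp and not every library was positive (exact p = 0.125). More and wider peaks together meant that 1.47%, 0.732% and 4.58% of the bases of 22q11 lay under a peak in MT1, MT2 and MT4, against 3.15% and 2.45% in WT bulk and WT transfected. On the rest of chromosome 22 this was 0.043 to 0.234%. The widest merged region of 22q11, 7178 bp from 19771118 to 19778295, was held by WT transfected alone with a score of 91.6, near the lowest of its list. Neighbouring peaks of 22q11 started a median of 92.5, 126 and 20.0 kb apart in MT1, MT2 and MT4, against 31.2 and 38.7 kb in WT bulk and WT transfected.

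**Figure D5:**
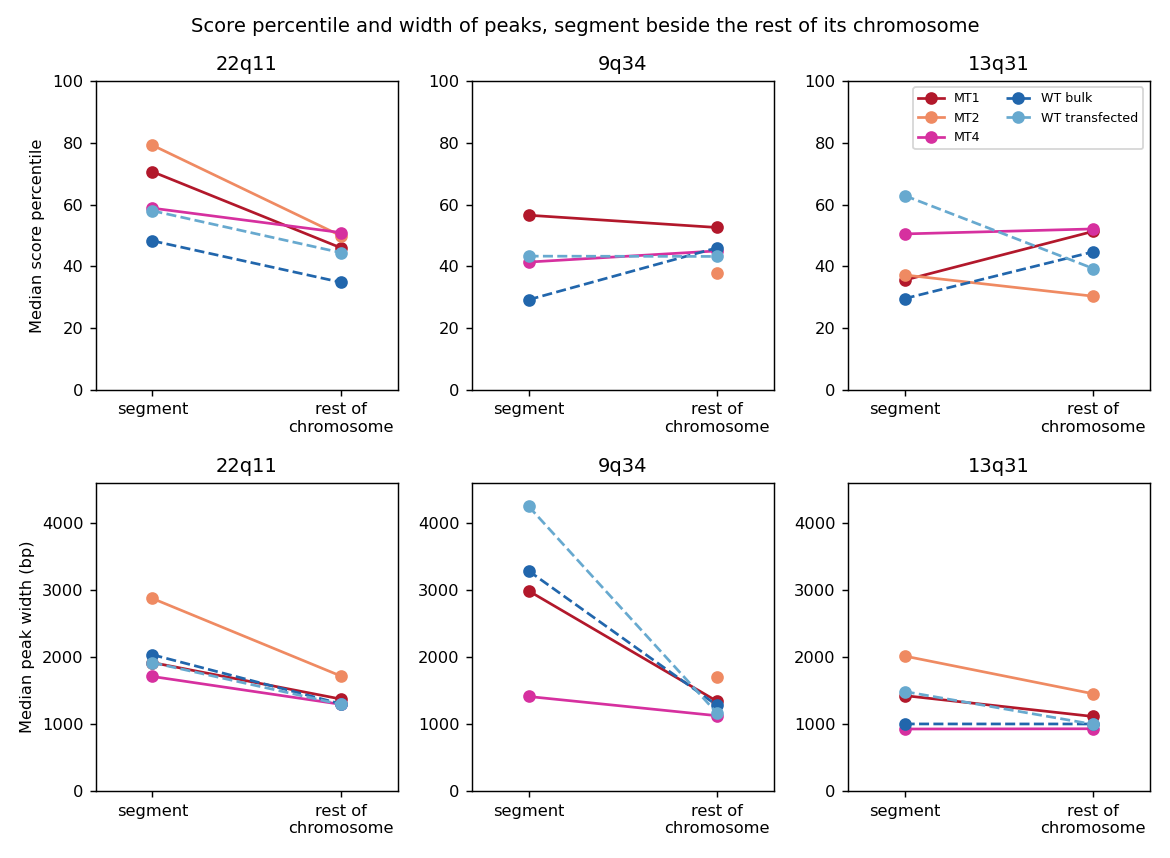
Median score percentile (upper row) and median peak width in bp (lower row) in each segment, beside the rest of its chromosome, one line per library, solid for mutated and dashed for wild-type. All 5 lines of 22q11 are higher in the segment in both rows; MT2 has no peak in 9q34 and only its value for the rest of chromosome 9 is drawn.

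On 9q34 the peaks were wider but did not rank higher. The median width was 2989 bp in MT1 and 1414.5 bp in MT4, against 3286.5 bp in WT bulk and 4249 bp in WT transfected, and MT2 had no peak to measure. The difference from the rest of chromosome 9 was positive in 4 of 4 libraries and averaged 1755 ± 1154 bp (SD, n = 4; exact sign-flip p = 0.125, the smallest that 4 libraries allow). In MT1 it rests on 2 peaks and in WT transfected on 4, and with the segment extended by 1 Mb at both ends it averaged 845 bp. The score percentile differed by -4.10 ± 9.04 points (SD, n = 4; exact p = 0.75), with the segment higher in 2 of 4 libraries. With the segment extended by 1 Mb at both ends, where MT2 also has peaks, it was -17.8 points and lower in every library (exact p = 0.063).

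On 13q31 neither measure differed in one direction in all libraries. The median score percentile was 35.5, 37.2 and 50.5 in MT1, MT2 and MT4, against 29.5 and 62.9 in WT bulk and WT transfected. The difference from the rest of chromosome 13 ran from -15.8 in MT1 to 23.6 in WT transfected (exact sign-flip p = 0.938). The median width was 1427.5, 2017 and 930 bp in MT1, MT2 and MT4, against 1005.5 and 1488 bp in WT bulk and WT transfected. It lay above that of the rest of the chromosome in 4 of 5 libraries, by 272 ± 265 bp on average (SD, n = 5; exact p = 0.188; 116 bp with peaks under the median score dropped), with differences of -3.5 bp in MT4 and 0.5 bp in WT bulk. Its widest merged region, 4601 bp from 81278203 to 81282803, was held by MT4 alone with a score of 158.

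Recovery asks how often a library held a region that at least 2 of the other 4 libraries held. On 22q11 it was 45.2% in MT1 (42 of 93), 17.9% in MT2 (17 of 95) and 84.6% in MT4 (55 of 65), against 80.0% in WT bulk (56 of 70) and 64.2% in WT transfected (52 of 81). On the rest of chromosome 22 it was 37.9%, 16.1% and 72.2% in MT1, MT2 and MT4, and 71.4% and 44.4% in WT bulk and WT transfected. The difference was positive in 5 of 5 libraries and averaged 9.94 ± 6.68 percentage points (SD, n = 5; exact sign-flip p = 0.063). In MT4 it was 12.4 points, and in the other 4 libraries 1.77 (MT2) to 19.8 (WT transfected). When regions were merged again without MT4, a different set of regions qualified. Over that set the difference averaged 1.93 points in the other 4 libraries (exact p = 0.875). It was 30.7 points with peaks under the median score dropped (exact p = 0.063) and 22.5 with lists of equal length (exact p = 0.125). Within each library the Wilson intervals of the segment and of the rest overlapped, for instance 53.3 to 73.8% and 27.6 to 62.7% in WT transfected.

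On 13q31 recovery differed from that of the rest of chromosome 13 by -0.935 ± 6.96 percentage points (SD, n = 5; exact p = 0.812). It was 32.3%, 18.2% and 82.4% in MT1, MT2 and MT4, against 73.7% and 44.4% in WT bulk and WT transfected. On 9q34 only 3 to 6 regions qualified per library, and the difference of -8.75 ± 15.4 points (SD, n = 5; exact p = 0.312) rests on those few. For both segments the sign of this difference changed with the score limit and with list length.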

How the data were processed

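The authors deposited 1 peak list per library (chromosome, start, end, name, score). Peak names begin with MACS. Bowtie 1.1.1, edgeR and build hg19 appear in the submitters' processing notes. Not given in the sources used here are their roles, the caller's threshold and whether there was an input. The score of each peak is the authors' own value with no unit stated, and served to order peaks inside one list. The score limit was one value, the median over all lists, applied to every list alike. Whether scores are on the same scale in different libraries is unknown, so scores printed side by side are each list's own values. Per the labels, reads were paired ends of 100 to 125 bp. Read totals were not used here.

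Coordinates are hg19, counted from 1, and peaks were assigned by their start. Peaks with 1 bp or more in common became one merged region. Length shares use the span from the first to the last peak of a chromosome. Score percentiles are ranks within a list. The library was the replicate. Mutated and wild-type libraries were compared by an exact permutation test over 10 choices (two-sided, smallest p 0.2), and segments with the rest of their chromosome by an exact sign-flip test (smallest p 0.0625 with 5 libraries). The Benjamini-Hochberg adjustment covers 18 tests. The p-values measure only the spread between these libraries. Regions named in the text are the 5 strongest common to all libraries in each segment, up to 5 of each genotype class, the widest, and windows with the most and fewest peaks; others were chosen after their values were seen. Python 3.11.15, numpy 2.4.6, pandas 2.3.3, scipy 1.17.1 and matplotlib 3.10.9 were used. Merging and tests were checked on simulated lists. The segments and measures were chosen with earlier results of these data known.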

Additional observations from a re-analysis of the deposited data

How the results depend on the processing

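No paired analysis was possible because nothing in the labels ties an edited line to one of the controls. No test could pass 0.05 under any setting. The excess of 22q11 and 13q31 over their share of length, the width differences of all 3 segments and the score and recovery differences of 22q11 kept their sign in every setting run, though not their size: the recovery difference of 22q11 ran from 1.93 (without MT4) to 30.7 percentage points, its width difference from 316 to 880 bp and that of 9q34 from 845 to 2960 bp.

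Mutated minus wild-type shares of the list on 22q11 (reported -0.045 percentage points) became 0.601 (genotypes not overlapping) with peaks scoring under 122 dropped (the median over all lists) and 0.0226 with segments extended by 1 Mb at both ends, with -0.152 to 0.0981 without one library. The share of chromosome 22 (reported 1.23) became -14.6 with lists of equal length (1426 peaks) and -1.46 without the densest window, a setting added after the data were seen, with -3.20 to 5.67 without one library. On 9q34 the share of the list (reported -0.0462) became 0.00476 at the score limit and 0.0468 at equal length, and the share of chromosome 9 (reported -1.53) became 1.88 at equal length and -5.62 by base pairs covered (genotypes not overlapping). The 9q34 excess was -0.256 without the peaks of its densest window, set against the length share of the whole segment. Its score difference became -17.8 with wider segments, 9.52 at the score limit and 5.05 at equal length (-6.79 to 0.152 without one library), and its recovery difference 24.4 and 23.1 (-17.5 to 1.96). On 13q31 the score difference (reported -0.412) became 3.68, 1.84 and 0.0358 at the score limit, equal length and wider segments (-6.42 to 3.43 without one library). Its recovery difference became 16.2 and 16.6 at the score limit and equal length (-1.38 to 21.7), and the share of the list (reported 0.103) ranged from -0.0350 to 0.224 without one library. The cause was not tested.

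Fewer peaks gave fewer regions by construction. At the score limit there were 109 regions on 22q11, 8 on 9q34 and 48 on 13q31, 2 common regions on 13q31, and 0 wild-type-only regions on 22q11 and on 13q31. At equal length there were 52, 4 and 23 regions, 3 common on 13q31, 1 wild-type-only on 22q11 and 0 on 13q31, and 1 mutant-only on 22q11 and 1 on 13q31. Wider segments gave 34 regions on 9q34. Without one library, regions on 22q11, 9q34 and 13q31 numbered 115 to 176, 12 to 19 and 52 to 101. Common regions numbered 15 to 31, 0 to 1 and 5 to 8, the highest without MT2. Wild-type-only regions numbered 6 to 22, 0 to 6 and 2 to 16, and mutant-only regions 0 to 2, 0 to 0 and 0 to 1, since fewer libraries have to satisfy the class. An overlap of 50% or a gap of 500 bp moved no count by over 1.5 times. A place missing from MT1 or MT2, the shortest lists, cannot be called unmethylated.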
